A study of Mus musculus with 8 samples.

Results

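The expression of genes was compared between OP9 cells, a stromal line that supports the growth of B-lymphocytes from blood progenitors, and NIH3T3 fibroblasts, which in the same study served as the line without that support. The comparison used 4 of the 8 arrays of the study, 2 for each line, and it covered every gene of the array rather than a chosen set. Of 18194 named genes, 10084 reached an intensity of 100 on 2 or more of the 8 arrays and were tested. The OP9 arrays came from cells cultured without pre-B cells. Their label gives bone marrow stroma of strain B6C3F1, and the line carried the red fluorescent protein mStrawberry and was kept in OptiMEM. According to the methods these cells were the control of a co-culture and stood in conditioned medium. The NIH3T3 arrays are labelled as embryonic fibroblasts of strain Balb/c, although the line is generally said to derive from Swiss mice, and these cells were grown in Dulbecco's medium. Both media held fetal calf serum and gentamicin. Each line is a single immortal line, so the difference between the lines cannot be told apart from that between strains, media or culture conditions. The biotin-labelled RNA was prepared from 2000 cells. The arrays of a line are labelled as biological replicates, but separate cultures are not named, and the p-values therefore reflect a spread that may be technical. The other 4 arrays, of OP9 cells with pre-B cells and of the osteoblast line MC3T3, entered the estimate of the spread.

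In bone marrow, B-cell progenitors depend on mesenchymal stroma that holds them by adhesion molecules and feeds them with chemokines and cytokines. Such stroma lies close to the fat cell lineage, and its state is set by transcription factors such as those of the C/EBP, EBF and nuclear receptor families. Fibroblast lines share the mesenchymal origin, but differ in the receptors and adhesion molecules on their surface and in how they use glucose, fat and sterols.

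OP9 cells had 2072 genes at a higher and 1034 at a lower level than NIH3T3 cells, counting a gene when its adjusted p was below 0.05 and its difference 2-fold or more. Thus 30.8% of the tested genes were called, 20.5% as higher and 10.3% as lower. None of the 3106 called genes had overlapping arrays. The thresholds of a call already favour genes with separate arrays, so this adds no further support. In such bulk samples, fewer cells that express a gene and less of its RNA in each cell cannot be told apart. The difference reached 10-fold in 297 of the higher and 91 of the lower genes, and 100-fold in 32 and 9. The standard error of a log2 difference had a median of 0.091, and the replicate arrays differed over 2-fold in 61 genes for NIH3T3 and in 0 for OP9 cells. In 933 of the higher genes the mean of the NIH3T3 arrays lay below 100, where the signal runs into the background of the array, so such folds depend on that background. In 364 of the lower genes the same held for OP9 cells. With 16 added to each value before log2, 68 of the 209 called genes that the naming rule chose moved by more than 1.5-fold, and with the mean of all probe sets of a gene 66 did. The median over all tested genes was 0.16 on the log2 scale, and it was 0.016 after quantile normalization and 0.223 after median scaling. Higher genes made up 66.7% of the calls, 58.2% after quantile normalization and 70.0% after median scaling. Differences are given as deposited, without subtracting this shift.

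**Figure D1:**
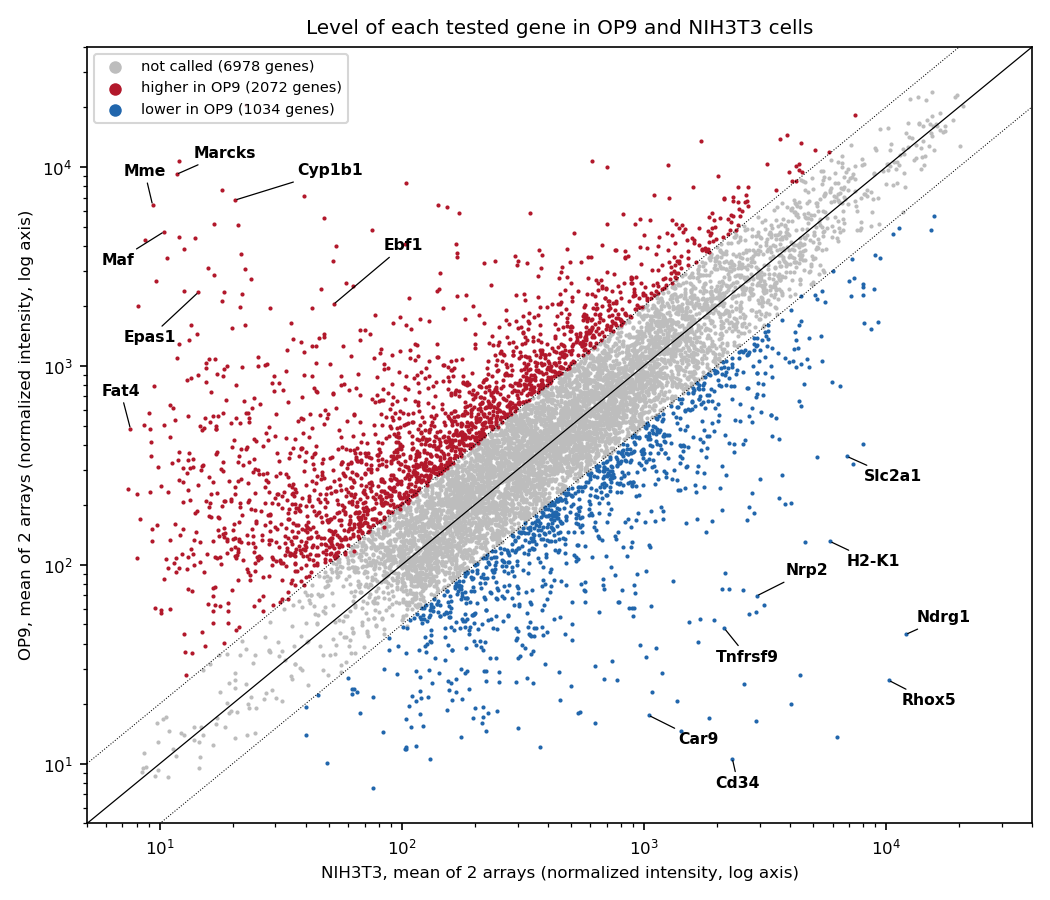
Mean normalized intensity of each of the 10084 tested genes in NIH3T3 (x) and OP9 cells (y), both on log axes, with genes called higher in OP9 in red, called lower in blue and the others in grey. The solid line marks equal levels and the dotted lines a 2-fold difference. The largest red differences reach further from the line than the largest blue ones, and the genes at the far left lie near the bottom of the scale in NIH3T3 cells.

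Among the genes with the largest differences was Mme, encoding the peptidase neprilysin (CD10), which is found on marrow stroma and on early lymphoid cells. It was at 6308 and 6533 on the OP9 arrays and at 9.67 and 8.97 on the NIH3T3 arrays (log2 difference 9.43, SE 0.07, adjusted p = 6.57e-10 from limma). Both OP9 arrays were bright and both NIH3T3 arrays near the lowest values of the array. Enpep, encoding the aminopeptidase known as BP-1 on early B-cells and stroma, was at 4349 and 4379.5 on the OP9 arrays and at 13.2 and 14.7 on the NIH3T3 arrays (log2 difference 8.29, SE 0.08, adjusted p = 6.57e-10 from limma). Marcks, encoding a membrane protein that binds actin, was at 8736 and 9588 on the OP9 arrays and at 10.2 and 13.2 on the NIH3T3 arrays (log2 difference 9.62, SE 0.12, adjusted p = 1.6e-09 from limma). On MC3T3 arrays Marcks was at 6485 and 6535, so with this probe set the near absence of signal was seen in NIH3T3 cells alone among the 3 lines. Of its 6 other probe sets 5 were called in the same direction. However, one was at only 177 and 155 on the OP9 arrays and 86.3 and 56.2 on the NIH3T3 arrays. The uncalled one was at 96.6 and 103 on the OP9 arrays and 59.2 and 82.1 on the NIH3T3 arrays. Cxcl12, encoding a chemokine of marrow stroma, was at 19989 and 21062 on the OP9 arrays and at 23.6 and 21.8 on the NIH3T3 arrays. Adipoq, whose product adiponectin is a hormone of fat cells, was at 10697 and 10639 on the OP9 arrays and at 13.01 and 11.04 on the NIH3T3 arrays. The OP9 values of both were among the brightest of the array. On the arrays of OP9 cells with pre-B cells, Cxcl12 was at 18390 and 18260, but Adipoq only at 358 and 337. Further genes with a large difference were Gulp1, encoding an adaptor for the uptake of dead cells (8.94 on the log2 scale), and Ptn, encoding the secreted growth factor pleiotrophin (8.53). Hs6st2, encoding a sulfotransferase of heparan sulfate, differed by 8.36.

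On the other side, Rpl39l, encoding a close relative of a ribosomal protein, was at 6618 and 5946 on the NIH3T3 arrays and at 13.8 and 13.3 on the OP9 arrays (log2 difference -8.86, SE 0.10, adjusted p = 1.19e-09 from limma). Rhox5, a homeobox gene of the X chromosome, was at 10164 and 10324 on the NIH3T3 arrays and at 26.8 and 25.5 on the OP9 arrays (log2 difference -8.61, SE 0.14, adjusted p = 3.21e-09 from limma). For these genes too the arrays of one line lay near the bottom of the scale and those of the other near the top. Cd34, encoding a surface sialomucin of blood progenitors and some fibroblasts, was at 2260.0 and 2366 on the NIH3T3 arrays and at 10.5 and 10.7 on the OP9 arrays (log2 difference -7.77, SE 0.09, adjusted p = 1.19e-09 from limma). Lower by more than 100-fold were also Igfbp6, encoding a protein that binds insulin-like growth factors (158-fold), Msln, encoding the surface protein mesothelin (109-fold), and Aqp5, encoding a water channel (103-fold). Ifi202b, an interferon-inducible gene with close relatives that may share its probes, was 203-fold lower. Slc22a23, of a family of organic ion transporters, was 66.9-fold lower, and the unnamed transcripts 2610528A11Rik and 3110039M20Rik were 178-fold and 96.9-fold lower.

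The markers of the lines went with their labels as mesenchymal cells, but those of fat cells were mostly higher in OP9 cells. Of 22 mesenchymal and fibroblast markers, 19 reached a mean of 100 in OP9 and 17 in NIH3T3 cells. OP9 cells were higher in 11 (50.0%) and lower in 0 of them, beside 20.5% and 10.3% over all tested genes. Of 13 markers of marrow stroma, 12 reached 100 in OP9 and 8 in NIH3T3 cells. Fat cell markers reached 100 in 11 of 13 cases in OP9 and in 3 in NIH3T3 cells. Smooth muscle markers did so in 7 of 11 and in 4, and osteoblast markers in 3 of 8 and in 2. Higher in OP9 cells were 10 of 11 tested fat cell, 4 of 7 smooth muscle and 3 of 4 osteoblast markers. Lower calls numbered 0 in each of these lists. The lists share members, such as Adipoq in those of marrow stroma and fat cells. A mean of 100 was reached by 1 of 18 leukocyte markers in OP9 and 3 in NIH3T3 cells, by 3 of 16 macrophage markers in OP9 and 2 in NIH3T3 cells, by 2 of 13 endothelial markers in OP9 and 1 in NIH3T3 cells, and by 1 of 14 epithelial markers in OP9 and 4 in NIH3T3 cells. Ptprc, the leukocyte antigen CD45, was at 8.93 and 8.58 on the OP9 arrays and 8.02 and 11.9 on the NIH3T3 arrays. The endothelial genes Pecam1 and Cdh5 and the epithelial gene Cdh1 were below 100 on all 4 arrays, but other members were not. The endothelial gene Egfl7 was at 251 and 226 on the OP9 arrays and 230 and 223 on the NIH3T3 arrays. The epithelial gene Epcam was at 268.5 and 294 on the OP9 arrays and 147 and 173 on the NIH3T3 arrays. Ramp2 reached a mean of 100 in OP9 cells alone, and Krt8, Krt14 and Cldn3 in NIH3T3 cells alone. The summed level of the 18 leukocyte markers was 2766 and 2575 on the OP9 arrays against 962 and 816 on the NIH3T3 arrays, and Ebf1 alone gave 2146 and 1922 of the former. The sum of the 16 macrophage markers was 768 and 818 against 1304 and 1237, and of the 4 tested members 2 were higher in OP9 cells and 2 lower. Cd68 was at 125 ± 5.14 against 532 ± 13.04 (SD, n = 2) and Cd14 at 139 ± 7.13 against 286 ± 4.06, whereas the near-identical lysozyme genes, which may share probes, were higher, Lyz1 with 107 ± 0.988 against 29.3 ± 12.2 and Lyz2 with 92.5 ± 2.43 against 36.8 ± 1.49.

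Transcription factors were divided into 12 families, which held 549 genes on the array. Of these, 241 stayed below the minimum of the test. Of the 308 tested 99 were higher and 42 lower in OP9 cells, or 45.8% called beside 30.8% over all genes. A gene that passed the minimum only through the line where it is high had to differ, so the shares of a list are read beside those over all genes and describe the tested genes alone. No list of genes below is said to stand apart from the array as a whole.

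**Figure D2:**
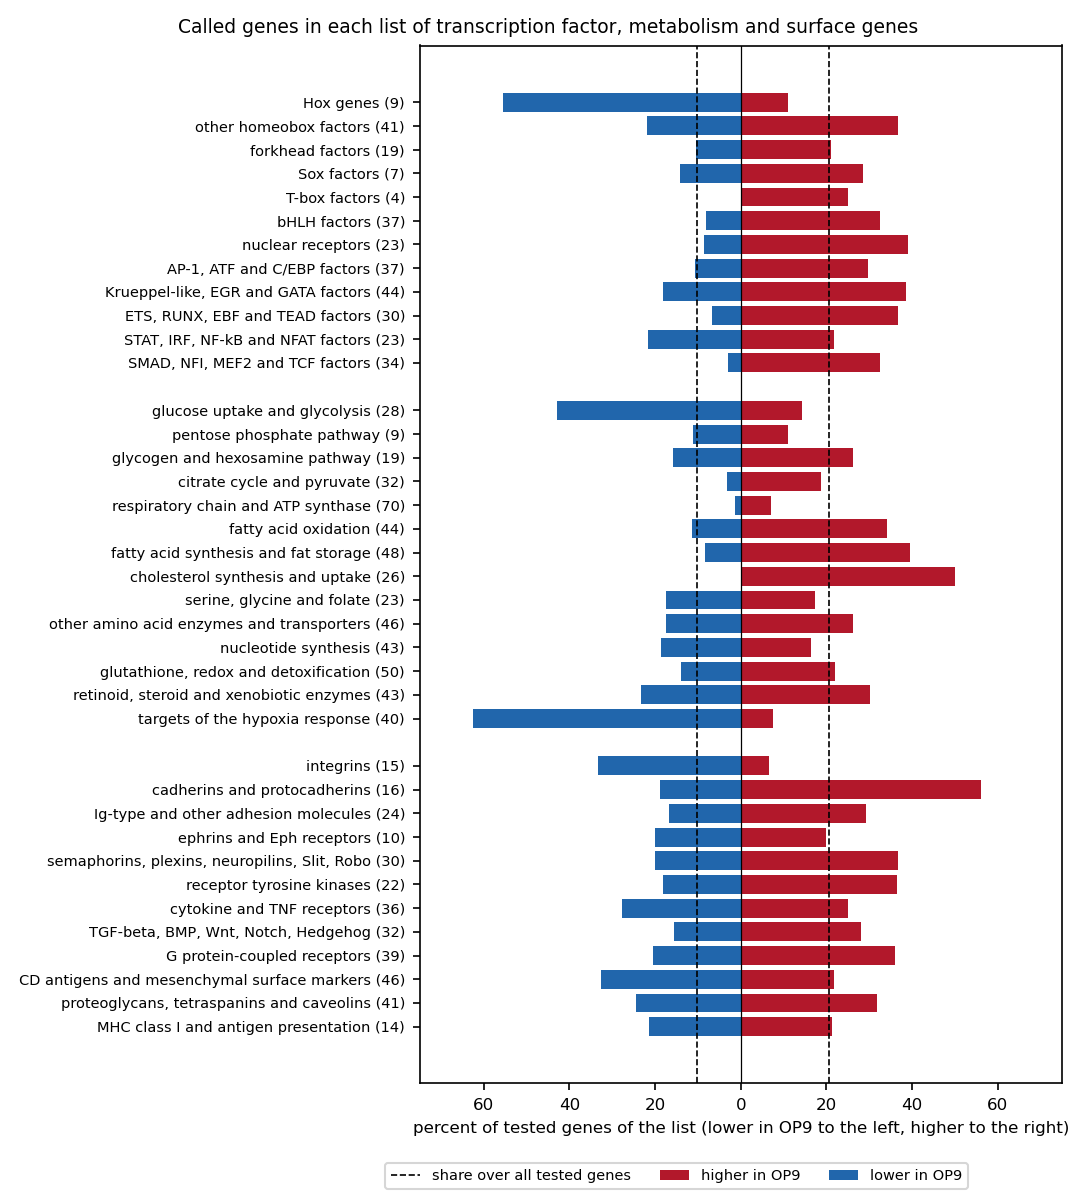
Percent of the tested genes of each list that were higher in OP9 (red, to the right) or lower (blue, to the left), with the number of tested genes in parentheses and the shares over all tested genes, 20.5 and 10.3%, as dashed lines. The upper block holds transcription factors, the middle block metabolism and the lower block surface genes. Targets of the hypoxia response, Hox genes and glycolysis extend furthest to the left, and cadherins and cholesterol synthesis furthest to the right.

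Several of the called factors are known from stromal and fat cells. Ebf1, which is required for the B-lineage but is also expressed in stromal and fat precursors, was at 2146 and 1922 on the OP9 arrays and at 43.7 and 60.5 on the NIH3T3 arrays (log2 difference 5.30, SE 0.17, adjusted p = 7.8e-08 from limma). Cebpa, a regulator of fat cell and myeloid differentiation, was at 1622 and 1663 on the OP9 arrays and at 40.99 and 28.5 on the NIH3T3 arrays (log2 difference 5.59, SE 0.15, adjusted p = 3.4e-08 from limma). Zfp521 and Zfp423, encoding zinc finger proteins that bind EBF factors, were higher by 38.9-fold and 32.4-fold. Zfp521 was at 1472 and 1266 on the OP9 arrays and at 29.5 and 41.7 on the NIH3T3 arrays, and the arrays of the lines were far apart for both genes. Pparg, the central nuclear receptor of fat cells, was at 1358 and 1323 on the OP9 arrays and at 314 and 341 on the NIH3T3 arrays (log2 difference 2.04, SE 0.07, adjusted p = 1.77e-07 from limma), with a clear signal in the fibroblasts as well. Prdm16, a cofactor of brown fat cells, was 12.02-fold higher with 150.3 ± 19.5 against 12.5 ± 0.736 (SD, n = 2). Zfp423, Pparg and Prdm16 lie outside the 3 largest differences of their lists and were chosen after their values were seen. By contrast Cebpb, which acts early in fat cell formation, was lower at 1018 and 1131 on the OP9 arrays and at 4969 and 4479 on the NIH3T3 arrays (log2 difference -2.14, SE 0.09, adjusted p = 3.9e-07 from limma), and Klf4 was lower by 5.799-fold.

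Maf, encoding a leucine zipper protein of the AP-1 superfamily, was at 4774 and 4650.2 on the OP9 arrays and at 8.98 and 11.8 on the NIH3T3 arrays (log2 difference 8.84, SE 0.13, adjusted p = 2.94e-09 from limma). The NIH3T3 values lay at the bottom of the scale, and adding 16 to every value brought the log2 difference of Maf to 7.49, while averaging its probe sets gave 4.71. Within the AP-1, ATF and C/EBP list 11 of 37 tested genes (29.7%) were higher and 4 (10.8%) lower, beside 20.5% and 10.3% over all genes. Fos was at 6401 and 6382 on the OP9 arrays and at 138 and 143 on the NIH3T3 arrays (log2 difference 5.51, SE 0.14, adjusted p = 2.25e-08 from limma), and its relative Fosl1 was lower, with 195 ± 5.41 against 1169.5 ± 46.6 (SD, n = 2). Egr3, Nr4a1 and Nr4a2, immediate early genes like Fos, were higher too. Egr3 was at 406 and 420.1 on the OP9 arrays and at 8.46 and 9.97 on the NIH3T3 arrays (log2 difference 5.49, SE 0.10, adjusted p = 5.19e-09 from limma), Nr4a1 at 3487 and 3561 on the OP9 arrays and at 162 and 174 on the NIH3T3 arrays (log2 difference 4.39, SE 0.07, adjusted p = 3.21e-09 from limma), and Nr4a2 was 14-fold higher. These genes react to serum and handling within minutes to hours. On the arrays of OP9 cells with pre-B cells, Fos was at 209 and 233, Egr3 at 405 and 441 and Nr4a1 at 399 and 401. Fos and Nr4a1 were far lower there than on the arrays of OP9 cells alone, while Egr3 was close to them. The other tested probe set of Egr3 was not called in the comparison with NIH3T3 cells. The part of culture and handling in the difference from NIH3T3 cells was not tested. Myc, in the bHLH list, was lower in OP9 cells at 231 and 228 on the OP9 arrays and at 2668 and 2893 on the NIH3T3 arrays (log2 difference -3.60, SE 0.08, adjusted p = 1.3e-08 from limma).

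Of 37 tested bHLH genes 12 (32.4%) were higher and 3 (8.11%) lower, beside 20.5% and 10.3% over all genes. Epas1, encoding the oxygen-regulated factor HIF-2 alpha, was at 2317 and 2361 on the OP9 arrays and at 15.01 and 13.8 on the NIH3T3 arrays (log2 difference 7.34, SE 0.15, adjusted p = 9.37e-09 from limma), one of the largest differences of any factor. Hif1a, encoding HIF-1 alpha, was not called and was at 4159 and 4376 on the OP9 arrays and at 2403 and 2558 on the NIH3T3 arrays, so it lay on the same side by 1.72-fold. All 4 genes of the inhibitors of DNA binding, which hold bHLH factors off their sites, were higher in OP9 cells. Id4 was at 359 and 342 on the OP9 arrays and at 9.69 and 8.596 on the NIH3T3 arrays (log2 difference 5.26, SE 0.09, adjusted p = 5.85e-09 from limma), and Id1, Id2 and Id3 were 2.18-fold, 12.2-fold and 5.02-fold higher. Id1, Id2 and Id3 were chosen after their values were seen. Hes6, of the Hairy and Enhancer of split family, was 12.7-fold higher and the Myc antagonist Mxi1 4.54-fold lower.

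Homeobox genes differed between the 2 lines in both directions. Of 33 Hox genes on the array 24 stayed below the minimum. Of the 9 tested 1 (11.1%) was higher and 5 (55.6%) were lower, beside 20.5% and 10.3% over all genes. Hoxa10 was at 301 and 276 on the OP9 arrays and at 15 and 10.8 on the NIH3T3 arrays (log2 difference 4.50, SE 0.15, adjusted p = 1.18e-07 from limma), whereas Hoxd8, Hoxd9, Hoxa7, Hoxb13 and Hoxa5 were lower by 8.04-fold, 7.38-fold, 6.28-fold, 4.795-fold and 2.72-fold, the last 2 chosen after their values were seen. With the mean of all probe sets of each gene, 0 Hox genes were called higher and 4 lower. Among the other homeobox genes 15 of 41 were higher and 9 lower. Dlx5, a regulator of bone formation, was at 794 and 841 on the OP9 arrays and at 32.2 and 25.6 on the NIH3T3 arrays (log2 difference 4.83, SE 0.14, adjusted p = 6.13e-08 from limma), and Irx3 was at 1749 and 1839 on the OP9 arrays and at 55.8 and 98.7 on the NIH3T3 arrays (log2 difference 4.59, SE 0.23, adjusted p = 9.21e-07 from limma). Six4 and Pax3, which act in muscle precursors, were lower by 6.19-fold and 3.87-fold, Pax3 with only 29.1 ± 0.787 against 114 ± 26.1 (SD, n = 2). Of the forkhead genes, Foxc1, a factor of marrow stroma that maintains the niche of blood progenitors, was at 3626 and 3881 on the OP9 arrays and at 848 and 817 on the NIH3T3 arrays (log2 difference 2.17, SE 0.08, adjusted p = 1.34e-07 from limma), and Foxf2 was lower at 13.3 and 10.8 on the OP9 arrays and at 349 and 394 on the NIH3T3 arrays (log2 difference -4.95, SE 0.11, adjusted p = 1.23e-08 from limma). Foxs1 was 5.06-fold higher and Foxj3 3.84-fold lower.

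Further families held single large differences. Snai2, a repressor of epithelial genes, was at 6075 and 6470.4 on the OP9 arrays and at 164 and 144 on the NIH3T3 arrays (log2 difference 5.35, SE 0.10, adjusted p = 6.66e-09 from limma), and Zfpm2, a cofactor of GATA proteins, was at 1614 and 1712 on the NIH3T3 arrays and at 43.8 and 37.5 on the OP9 arrays (log2 difference -5.36, SE 0.09, adjusted p = 4.93e-09 from limma). In the list of Krueppel-like, EGR and GATA factors 17 of 44 (38.6%) were higher and 8 (18.2%) lower, beside 20.5% and 10.3% over all genes. Vgll3, a partner of TEAD factors, was at 751 and 835 on the OP9 arrays and at 8.39 and 10.4 on the NIH3T3 arrays (log2 difference 6.40, SE 0.11, adjusted p = 4.91e-09 from limma), and Runx1, which is needed for definitive blood formation, was 8.21-fold higher with 672 ± 43.3 against 81.98 ± 8.62 (SD, n = 2) and was chosen after its values were seen. Tfap2a was 5.89-fold lower. Of 23 nuclear receptors 9 (39.1%) were higher and 2 (8.7%) lower. Esr1, the estrogen receptor alpha, chosen after its values were seen, was at 349.8 and 333 on the OP9 arrays and at 44.8 and 23.6 on the NIH3T3 arrays (log2 difference 3.39, SE 0.25, adjusted p = 7.89e-06 from limma), Nr2f1 was 14.3-fold higher, and Nr3c1, the glucocorticoid receptor, was 2.27-fold lower with 975 ± 23.1 against 2216 ± 23.2 (SD, n = 2), but was not called with the mean of its probe sets (-0.51). Tsc22d3, known as a target of glucocorticoids, was 7.81-fold higher.

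In the list of STAT, IRF, NF-kB and NFAT factors 5 of 23 genes (21.7%) were higher and 5 (21.7%) lower, beside 20.5% and 10.3% over all genes. Nfatc4 was at 761 and 864 on the OP9 arrays and at 102 and 80 on the NIH3T3 arrays (log2 difference 3.16, SE 0.16, adjusted p = 1.07e-06 from limma), and it was called at 1.74 on the log2 scale when probe sets with the suffix _x_at or _s_at, which can bind related transcripts, were left out. Irf9, the DNA-binding part of the interferon response complex, was 5.92-fold higher and Irf1 3.63-fold lower. Stat3, at 1143 and 1146 on the OP9 arrays and at 1025 and 1271 on the NIH3T3 arrays, did not differ beyond its spread (adjusted p = 0.97 from limma). Smad4, the shared partner of the SMAD proteins, was at 1806 and 1581 on the OP9 arrays and at 2245 and 2134 on the NIH3T3 arrays and was not called.

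**Figure D3:**
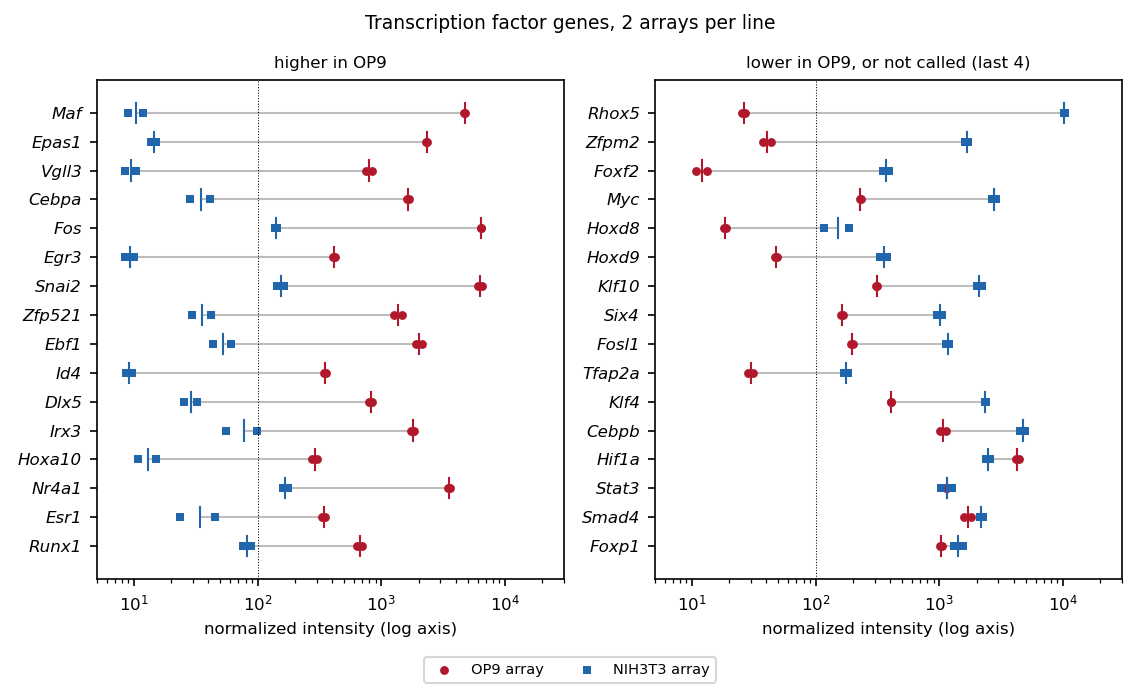
Normalized intensity of 32 transcription factor genes on each OP9 array (red circles) and NIH3T3 array (blue squares), on a log axis, with a tick at the mean of each line and a dotted line at 100. Genes of the left panel are called higher in OP9 cells, and those of the right panel are called lower apart from Hif1a, Stat3, Smad4 and Foxp1. The arrays of a line lie close together, and those of the 2 lines apart, for the called genes.

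The metabolism lists held 624 genes on the array, of which 114 stayed below the minimum. Of the 510 tested, 117 were higher and 81 lower in OP9 cells, or 38.8% called beside 30.8% over all genes. The glycolysis list held more lower than higher genes. The lists of fat and sterols held more higher than lower ones, as did all tested genes together (20.5% higher and 10.3% lower).

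Of 28 tested genes of glucose uptake and glycolysis, 4 (14.3%) were higher and 12 (42.9%) lower in OP9 cells, beside 20.5% and 10.3% over all genes. The median was -0.83 on the log2 scale against 0.16 over all genes. Slc2a1, encoding the glucose transporter GLUT1, was at 323 and 376 on the OP9 arrays and at 7143 and 6637 on the NIH3T3 arrays (log2 difference -4.30, SE 0.10, adjusted p = 1.76e-08 from limma). Hk2, encoding the hexokinase that traps glucose in the cell, was at 290.3 and 288 on the OP9 arrays and at 1911 and 1633 on the NIH3T3 arrays (log2 difference -2.61, SE 0.11, adjusted p = 4.17e-07 from limma). Pfkp, encoding a phosphofructokinase, was 7.21-fold lower, and the enolase gene Eno2 6.16-fold lower. Pgk1, Pkm and Ldha were lower by 3.17-fold, 2.33-fold and 2.69-fold, and these, Hk2 and Eno2 were chosen after their values were seen. Gapdh was not called, at 12827 and 12548 on the OP9 arrays and at 20479 and 19897 on the NIH3T3 arrays, and was 1.59-fold lower. The 2 genes of lactate dehydrogenase went apart, and Ldhb was at 2331 and 2071 on the OP9 arrays and at 711 and 667 on the NIH3T3 arrays (log2 difference 1.67, SE 0.08, adjusted p = 8e-07 from limma). Among the kinases that close the entry of pyruvate into the citrate cycle, Pdk4 was at 814 and 887 on the OP9 arrays and at 12.9 and 13.1 on the NIH3T3 arrays (log2 difference 6.04, SE 0.08, adjusted p = 1.6e-09 from limma), and Pdk1 was at 433 and 374 on the OP9 arrays and at 2484 and 2646 on the NIH3T3 arrays (log2 difference -2.67, SE 0.15, adjusted p = 1.49e-06 from limma). Pfkfb3, encoding an activator of phosphofructokinase, was 4.76-fold higher, but its second probe set was at 61.6 and 72.2 on the OP9 arrays and at 69.6 and 67.3 on the NIH3T3 arrays, with overlapping arrays.

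The genes known as targets of the hypoxia response had more calls in 1 direction. Of 40 tested, 25 (62.5%) were lower and 3 (7.5%) higher in OP9 cells, beside 10.3% and 20.5% over all genes. The median was -1.46 on the log2 scale against 0.16 over all genes. This list shares 5 of its lower genes with the glycolysis list. Ndrg1, encoding a protein induced by stress and low oxygen, was at 11807 and 12293 on the NIH3T3 arrays and at 40.04 and 49.1 on the OP9 arrays (log2 difference -8.09, SE 0.15, adjusted p = 6.08e-09 from limma). The other 4 probe sets of Ndrg1 had the same order, and the one nearest to the OP9 values was at 72.6 and 84.7 on the OP9 arrays and at 6066 and 6437 on the NIH3T3 arrays. Car9, encoding a carbonic anhydrase of the cell surface, was at 1034 and 1052 on the NIH3T3 arrays and at 16.6 and 18.4 on the OP9 arrays (log2 difference -5.90, SE 0.10, adjusted p = 5.52e-09 from limma). Egln3, encoding an oxygen-dependent hydroxylase of HIF proteins, was at 1061 and 1188 on the NIH3T3 arrays and at 35.5 and 40.2 on the OP9 arrays (log2 difference -4.89, SE 0.10, adjusted p = 1.12e-08 from limma). For each of these genes the OP9 arrays were low and the NIH3T3 arrays high by more than 10-fold. Adm, encoding the vasodilator adrenomedullin, and Ero1a, encoding an oxidase of the endoplasmic reticulum, were 16.7-fold and 14.9-fold lower. Egln3, Adm and Ero1a were chosen after their values were seen. The higher genes of the list were Zfp395, Pfkfb3 and Selenbp1, with 6.11-fold, 4.76-fold and 2.69-fold. In MC3T3 cells, grown in the same medium as NIH3T3 cells, Ndrg1 was at 824 and 855, Car9 at 1016 and 1061 and Egln3 at 156 and 170.2. In OP9 cells with pre-B cells, Ndrg1 was at 73.1 and 54.5. The density and oxygen of the cultures are not given in the sources used here, and their part was not tested.

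The promoters of these genes are shown because HIF proteins are known to bind a core of the letters ACGTG. RefSeq windows of 250 bases before to 50 after each start (build GRCm38.p6) were searched on both strands. The letters occurred in 19.6% of all 32851 windows. Of the 40 tested hypoxia targets 34 had windows, and the letters were in 30 of their 50 windows (60.0%). Of the 25 genes lower in OP9 cells 21 had windows, and 17 of 31 windows (54.8%) held them. The E-box CACGTG, which contains the same letters, was in 6 of the 50 windows (12%) and in 7.15% of all windows. A match is a description of these letters and not a binding site. The list was made of genes already known as targets of the response. Its share beside that of all windows therefore does not bear on the difference between the lines. Ndrg1 had no window and is not shown. Capitals mark ACGTG, or CACGT where the match is on the other strand. The match of Car9 began 18 bases before the start, that of Slc2a1 36, that of Egln3 229, and those of Hk2 226 and 52 bases before it. The windows of Adm and Pdk1 held no match, although both genes were lower.
Car9, chr4:43506776-43507075, plus strand: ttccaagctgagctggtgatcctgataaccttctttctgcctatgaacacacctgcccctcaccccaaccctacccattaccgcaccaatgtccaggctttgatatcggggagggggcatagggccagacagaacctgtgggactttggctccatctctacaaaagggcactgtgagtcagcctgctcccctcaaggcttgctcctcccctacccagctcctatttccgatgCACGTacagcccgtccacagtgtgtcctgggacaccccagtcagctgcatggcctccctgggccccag
Egln3, chr12:54203825-54204124, minus strand: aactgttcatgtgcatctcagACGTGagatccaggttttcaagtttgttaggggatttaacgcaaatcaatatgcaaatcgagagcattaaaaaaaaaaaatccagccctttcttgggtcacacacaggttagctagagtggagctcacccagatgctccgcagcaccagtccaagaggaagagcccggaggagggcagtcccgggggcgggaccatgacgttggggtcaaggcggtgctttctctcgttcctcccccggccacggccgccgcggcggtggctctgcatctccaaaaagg
Slc2a1, chr4:119108495-119108794, plus strand: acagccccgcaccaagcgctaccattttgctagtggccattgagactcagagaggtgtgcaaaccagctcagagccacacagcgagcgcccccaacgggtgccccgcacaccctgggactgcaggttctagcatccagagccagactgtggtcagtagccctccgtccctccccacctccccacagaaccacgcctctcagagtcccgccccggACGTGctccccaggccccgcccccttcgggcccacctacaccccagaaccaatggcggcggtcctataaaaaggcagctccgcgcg
Hk2, chr6:82774405-82774704, minus strand: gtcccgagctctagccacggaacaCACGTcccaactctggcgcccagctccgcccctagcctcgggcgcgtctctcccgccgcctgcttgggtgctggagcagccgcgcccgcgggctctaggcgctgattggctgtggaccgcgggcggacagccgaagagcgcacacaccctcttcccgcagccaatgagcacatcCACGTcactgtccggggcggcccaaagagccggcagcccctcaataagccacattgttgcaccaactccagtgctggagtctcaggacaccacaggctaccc

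Of 70 tested genes of the respiratory chain and ATP synthase 5 were higher and 1 was lower, 8.57% in all beside 30.8% over all genes, and the median was 0.28 on the log2 scale. At an adjusted p below 0.05 without a minimum fold, 43 were higher and 10 lower. With the 2-fold minimum and every probe set counted on its own, 11 instead of 5 were higher. The lower gene was Cox7a1, encoding an isoform of cytochrome oxidase found in muscle, at 12.9 and 14.5 on the OP9 arrays and at 181 and 170.1 on the NIH3T3 arrays (log2 difference -3.69, SE 0.09, adjusted p = 1.86e-08 from limma). Ndufa3, encoding a subunit of complex I, was 2.54-fold higher, and not called with the mean of its probe sets (0.83 on the log2 scale). In the citrate cycle list 6 of 32 genes (18.8%) were higher and 1 (3.12%) was lower, beside 20.5% and 10.3% over all genes. Sucla2, encoding a subunit of succinyl-CoA ligase, was at 1763 and 1853 on the OP9 arrays and at 332 and 397 on the NIH3T3 arrays (log2 difference 2.32, SE 0.10, adjusted p = 3.37e-07 from limma). Acly, whose product makes acetyl-CoA for lipid synthesis, was 2.52-fold higher, and was not called with the mean of its probe sets.

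Fatty acid oxidation had 15 of 44 tested genes higher (34.1%) and 5 lower (11.4%), beside 20.5% and 10.3% over all genes. Slc25a20, encoding the carrier of acylcarnitine into mitochondria, was at 1168 and 1165 on the OP9 arrays and at 32.3 and 46.4 on the NIH3T3 arrays (log2 difference 4.91, SE 0.15, adjusted p = 6.87e-08 from limma). Cpt1c, the brain form of carnitine palmitoyltransferase, was at 918 and 899 on the OP9 arrays and at 21.96 and 12.3 on the NIH3T3 arrays (log2 difference 5.79, SE 0.23, adjusted p = 2.54e-07 from limma), while the liver form Cpt1a, which is active in most cells, was lower at 1021 and 939 on the OP9 arrays and at 2226 and 2375 on the NIH3T3 arrays (log2 difference -1.23, SE 0.07, adjusted p = 2.54e-06 from limma). With the mean of its probe sets Cpt1a was at -0.84 and not called. Ppargc1a and Ppargc1b, encoding coactivators of mitochondrial genes, were 8.94-fold higher and 2.3-fold lower. Acox2, of peroxisomal oxidation, was 7.87-fold lower. Oxct1, encoding the enzyme that lets cells use ketone bodies, was at 5035 and 5276 on the OP9 arrays and at 704 and 704 on the NIH3T3 arrays (log2 difference 2.87, SE 0.09, adjusted p = 5.88e-08 from limma) and was chosen after its values were seen.

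In fatty acid synthesis and storage 19 of 48 genes were higher (39.6%) and 4 lower (8.33%), beside 20.5% and 10.3% over all genes. Fabp4, encoding the fatty acid binding protein of fat cells, was at 7566 and 7749 on the OP9 arrays and at 20.4 and 15.6 on the NIH3T3 arrays (log2 difference 8.75, SE 0.14, adjusted p = 3.85e-09 from limma). Cd36, encoding a fatty acid transporter of the cell surface, was at 1885 and 2042 on the OP9 arrays and at 20.02 and 22.8 on the NIH3T3 arrays (log2 difference 6.52, SE 0.12, adjusted p = 6.83e-09 from limma). On the arrays of OP9 cells with pre-B cells, Fabp4 was at 3654 and 3761 and Cd36 at 133 and 134. G0s2, encoding an inhibitor of the fat lipase ATGL, was at 536 and 514 on the OP9 arrays and at 46.9 and 27.6 on the NIH3T3 arrays (log2 difference 3.87, SE 0.21, adjusted p = 1.36e-06 from limma). Bscl2, encoding the lipid droplet protein seipin, and Elovl6, encoding an elongase, were 11.4-fold and 10.1-fold higher and were chosen after their values were seen. The lower genes held lipid handling too. Plin2, encoding the droplet coat protein of most cells, was at 2619.9 and 2523 on the OP9 arrays and at 7818 and 8239 on the NIH3T3 arrays (log2 difference -1.64, SE 0.07, adjusted p = 3.6e-07 from limma), Scd1, encoding the main desaturase, was 2.26-fold lower with 1089 ± 13.8 against 2463 ± 80.6 (SD, n = 2), and Slc27a1, encoding a fatty acid transport protein, was 5.44-fold lower. Scd1 was chosen after its values were seen.

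For cholesterol, 13 of 26 tested genes were higher (50.0%) and 0 lower, beside 20.5% and 10.3% over all genes. The median was 0.92 on the log2 scale against 0.16 over all genes. At an unadjusted p below 0.05 without a minimum fold, 19 were higher and 4 lower. Fdft1, encoding squalene synthase, was at 1635 and 1657 on the OP9 arrays and at 205 and 229.7 on the NIH3T3 arrays (log2 difference 2.92, SE 0.07, adjusted p = 2.74e-08 from limma), and Sc5d, of a late step, was at 1924 and 1771 on the OP9 arrays and at 387 and 519.7 on the NIH3T3 arrays (log2 difference 2.04, SE 0.14, adjusted p = 5e-06 from limma). Hmgcs1, Idi1, Lss and Dhcr7, at steps from the start to the end of the pathway, were 2.203-fold, 3.01-fold, 2.65-fold and 2.78-fold higher and were chosen after their values were seen. Of the 3 other tested probe sets of Hmgcs1 only 1 was called higher. Abca1, encoding the pump that exports cholesterol, was at 1074 and 1093 on the OP9 arrays and at 17.04 and 14.8 on the NIH3T3 arrays (log2 difference 6.09, SE 0.08, adjusted p = 2.21e-09 from limma). Sqle, encoding squalene epoxidase, was not called, at 1973 and 1958 on the OP9 arrays and at 2479 and 2517 on the NIH3T3 arrays. After quantile normalization 12 of the genes were higher and 0 lower.

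In the glycogen list Ppp1r3c, encoding a targeting subunit that activates glycogen synthase, was at 2216 and 1988 on the OP9 arrays and at 20.1 and 15.9 on the NIH3T3 arrays (log2 difference 6.87, SE 0.12, adjusted p = 5.22e-09 from limma). Gyg, encoding the glycogen primer glycogenin, was at 6003 and 5754 on the OP9 arrays and at 322 and 355 on the NIH3T3 arrays (log2 difference 4.12, SE 0.07, adjusted p = 5.85e-09 from limma). By contrast Pgm1, Gbe1 and Gys1, encoding phosphoglucomutase, the branching enzyme and glycogen synthase, were lower by 5.21-fold, 2.82-fold and 2.34-fold. The other tested probe set of Gys1 was not called.

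Of 46 tested amino acid enzymes and transporters, 12 (26.1%) were higher and 8 (17.4%) lower, beside 20.5% and 10.3% over all genes. Cdo1, encoding cysteine dioxygenase, was at 1079 and 1128 on the OP9 arrays and at 25.6 and 25.3 on the NIH3T3 arrays (log2 difference 5.44, SE 0.07, adjusted p = 1.46e-09 from limma), and Csad, of the next step toward taurine, was 7.75-fold higher. Glul, encoding glutamine synthetase, was 9.64-fold higher with 1121 ± 3.55 against 117 ± 12.2 (SD, n = 2), but its other tested probe set was not called. Chac1, Trib3 and Asns, known to rise in the response to amino acid shortage, were lower. Chac1 was at 925 and 938 on the NIH3T3 arrays and at 84.1 and 95.6 on the OP9 arrays (log2 difference -3.38, SE 0.13, adjusted p = 1.97e-07 from limma), and Trib3 and Asns were 6.01-fold and 2.61-fold lower. Slc7a2, encoding a transporter of cationic amino acids, was 25.9-fold higher, whereas its relative Slc7a1 was 6.67-fold lower. Csad, Glul and Asns were chosen after their values were seen. Ddit3, another gene of the stress response, was 2.43-fold higher and was likewise chosen later. The other tested probe set of Ddit3 was not called. In the list of serine, glycine and folate 4 of 23 (17.4%) were higher and 4 (17.4%) lower. Aldh1l1, encoding a folate dehydrogenase, was at 1024 and 1041 on the OP9 arrays and at 49.4 and 38.4 on the NIH3T3 arrays (log2 difference 4.57, SE 0.11, adjusted p = 2.25e-08 from limma), and Mthfd1l was 3.91-fold lower.

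Of 43 tested genes of nucleotide synthesis 7 (16.3%) were higher and 8 (18.6%) lower, beside 20.5% and 10.3% over all genes. Ampd3, encoding an AMP deaminase, was at 4066 and 3989 on the NIH3T3 arrays and at 208 and 201 on the OP9 arrays (log2 difference -4.30, SE 0.06, adjusted p = 2.76e-09 from limma), and Ak4, encoding a mitochondrial adenylate kinase, was 37.3-fold lower. Ctps, encoding CTP synthase, was 4.85-fold lower and Ak1 2.92-fold higher, the latter not called with the mean of its probe sets.

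Among 50 genes of glutathione, redox and detoxification 11 were higher and 7 lower. Prdx4, encoding a peroxiredoxin of the endoplasmic reticulum, was at 3847 and 3863 on the OP9 arrays and at 13.6 and 11.6 on the NIH3T3 arrays (log2 difference 8.26, SE 0.09, adjusted p = 1.17e-09 from limma). On the MC3T3 arrays Prdx4 was at 4566 and 4308. Another probe set of Prdx4 was near the bottom of the scale in both compared lines, at 11.9 and 12.1 on the OP9 arrays and 11.8 and 10.1 on the NIH3T3 arrays. Gclm and Gclc, encoding the 2 subunits of the enzyme that starts glutathione synthesis, were both lower. Gclm was at 2922 and 3092 on the NIH3T3 arrays and at 277 and 258 on the OP9 arrays (log2 difference -3.49, SE 0.08, adjusted p = 1.39e-08 from limma), and Gclc was 2.62-fold lower and was chosen after its values were seen. The other tested probe set of Gclc was not called. Mt2, encoding a metallothionein, was 6.54-fold lower. Gstt1 and Gstt3, encoding theta class glutathione transferases, were 9.17-fold and 33.7-fold higher. Genes of this class resemble each other, and shared binding of their probes was not tested.

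Enzymes of steroids, retinoids and prostaglandins held some of the largest differences. Of 43 tested 13 (30.2%) were higher and 10 (23.3%) lower, beside 20.5% and 10.3% over all genes. Cyp1b1, encoding a cytochrome P450 that acts on steroids, was at 6909.6 and 6687 on the OP9 arrays and at 17.03 and 23.8 on the NIH3T3 arrays (log2 difference 8.40, SE 0.15, adjusted p = 4.94e-09 from limma). Hsd17b11, encoding a dehydrogenase of lipid droplets, was at 5178 and 5132 on the OP9 arrays and at 18.8 and 14.5 on the NIH3T3 arrays (log2 difference 8.28, SE 0.11, adjusted p = 2.21e-09 from limma). Rbp4, encoding the carrier of retinol in blood, was at 2804 and 2934 on the OP9 arrays and at 21.2 and 12.2 on the NIH3T3 arrays (log2 difference 7.48, SE 0.22, adjusted p = 5.1e-08 from limma). Each of these genes was near the bottom of the scale in NIH3T3 cells. Hsd11b1, encoding the enzyme that restores active glucocorticoids, was 40.8-fold higher and was chosen after its values were seen. Ptgs2, encoding cyclooxygenase 2, was at 2053 and 2413 on the NIH3T3 arrays and at 66.8 and 83.2 on the OP9 arrays (log2 difference -4.90, SE 0.13, adjusted p = 2.76e-08 from limma), and Ptgis, encoding prostacyclin synthase, was 8.37-fold lower and was chosen later as well. Aldh3a1, encoding an aldehyde dehydrogenase, was at 7642 and 6962 on the NIH3T3 arrays and at 314 and 329.7 on the OP9 arrays (log2 difference -4.50, SE 0.09, adjusted p = 9.11e-09 from limma).

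**Figure D4:**
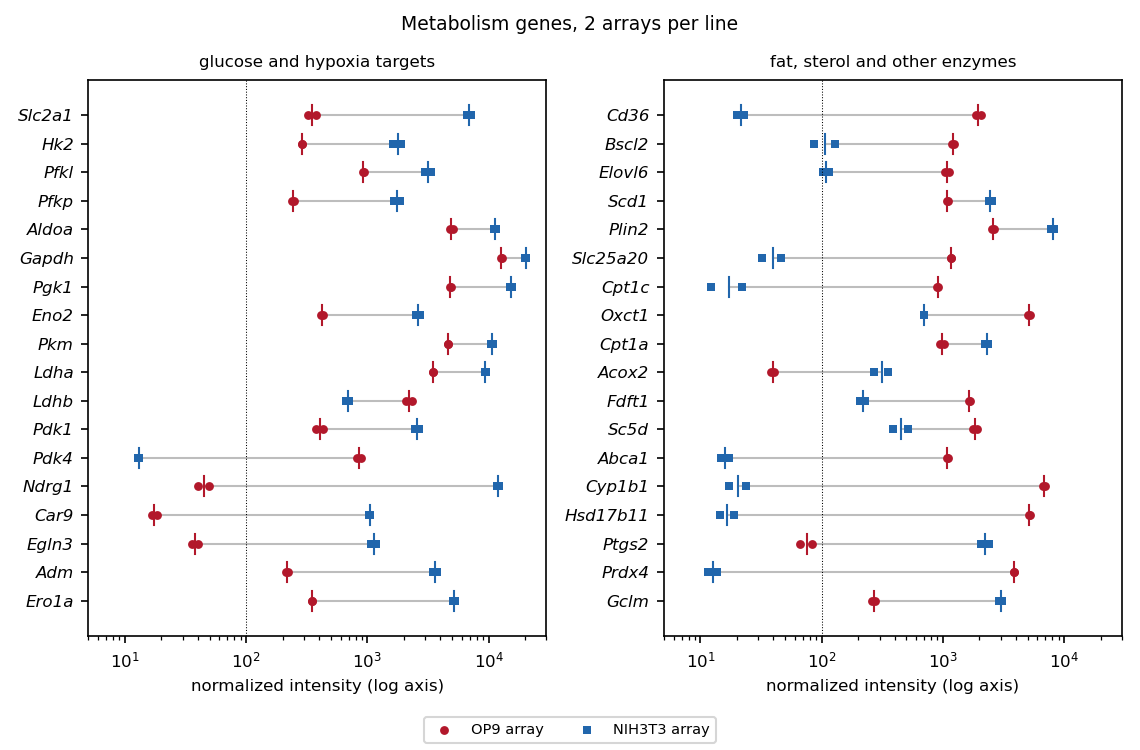
Normalized intensity of 36 metabolism genes on each OP9 array (red circles) and NIH3T3 array (blue squares), on a log axis, with a tick at the mean of each line and a dotted line at 100. The left panel shows selected genes of glucose metabolism and hypoxia targets, and of those drawn only Ldhb and Pdk4 lie to the right in OP9 cells. The higher hypoxia targets Zfp395, Pfkfb3 and Selenbp1 are not drawn. The right panel shows fat, sterol and other enzymes, with Scd1, Plin2, Cpt1a, Acox2, Ptgs2 and Gclm lower in OP9 cells and the others higher.

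The surface lists held 750 genes on the array, and 444 of them stayed below the minimum. Of the 306 tested, 93 were higher and 71 lower in OP9 cells, or 53.6% called beside 30.8% over all genes. As with the factors, a gene that passed the minimum only through the line where it is high had to differ. Calls in both directions were found in all 12 surface lists.

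Cadherins, which join cells of the same kind, were mostly absent from the test, with 53 of 69 genes below the minimum. Of the 16 tested, 9 (56.2%) were higher and 3 (18.8%) lower, beside 20.5% and 10.3% over all genes. With no minimum level 13 were higher and 8 lower. Fat4, encoding a giant atypical cadherin, was at 534 and 428 on the OP9 arrays and at 7.47 and 7.64 on the NIH3T3 arrays (log2 difference 5.98, SE 0.34, adjusted p = 1.67e-06 from limma), and it was called at 4.54 on the log2 scale without _x_at and _s_at probe sets. Cdh19 was at 256 and 205 on the OP9 arrays and at 8.45 and 9.78 on the NIH3T3 arrays (log2 difference 4.66, SE 0.13, adjusted p = 5.1e-08 from limma). Cdh2, encoding N-cadherin, was the opposite, at 671 and 877 on the NIH3T3 arrays and at 29.6 and 22.96 on the OP9 arrays (log2 difference -4.88, SE 0.16, adjusted p = 9.62e-08 from limma). Of the integrins, 1 of 15 (6.67%) was higher and 5 (33.3%) were lower. Itga1, which pairs to a collagen receptor, was 5.21-fold higher with 169.6 ± 5.95 against 33.9 ± 13.7 (SD, n = 2). Itga3, of a laminin receptor, was at 1397 and 1237 on the NIH3T3 arrays and at 89.5 and 76.1 on the OP9 arrays (log2 difference -3.99, SE 0.10, adjusted p = 2.52e-08 from limma), and Itgb7 was at 838 and 779.9 on the NIH3T3 arrays and at 71.6 and 77.5 on the OP9 arrays (log2 difference -3.44, SE 0.07, adjusted p = 1.12e-08 from limma). Itgav, encoding the alpha chain of vitronectin receptors, was not called, at 3046 and 2954 on the OP9 arrays and at 4612 and 5079 on the NIH3T3 arrays. Icam1, encoding a ligand of leukocyte integrins, was at 305 and 298 on the OP9 arrays and at 37.2 and 12 on the NIH3T3 arrays (log2 difference 3.83, SE 0.43, adjusted p = 8.34e-05 from limma). The NIH3T3 arrays were far apart for this gene, and the log2 difference was 4.65 without NIH3T3 array 1 and 3.02 without array 2. Igsf3 was 10.7-fold higher, and Pvr, encoding the poliovirus receptor, was 5.53-fold lower.

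Guidance molecules were first known from growing axons and also steer other cells. Of 30 tested, 11 were higher and 6 lower. Ntn1, encoding netrin 1, was at 1077 and 947 on the OP9 arrays and at 19 and 35.1 on the NIH3T3 arrays (log2 difference 5.29, SE 0.25, adjusted p = 5.96e-07 from limma). Robo1, encoding a receptor for Slit proteins, was at 232 and 220.3 on the OP9 arrays and at 8.87 and 7.18 on the NIH3T3 arrays (log2 difference 4.82, SE 0.10, adjusted p = 1.07e-08 from limma). Nrp2, encoding a coreceptor for semaphorins and vascular growth factors, was at 3022 and 2813 on the NIH3T3 arrays and at 71.7 and 67.5 on the OP9 arrays (log2 difference -5.39, SE 0.07, adjusted p = 2.09e-09 from limma), whereas Nrp1 was at 1820.2 and 1972 on the OP9 arrays and at 1463 and 2004 on the NIH3T3 arrays with overlapping arrays. Sema3e was 16.3-fold higher and Sema3c and Sema4d were 7.77-fold and 4.35-fold lower. Of 10 tested ephrins and Eph receptors 2 were higher and 2 lower. Efnb1 was 2.67-fold higher and Efnb2 2.87-fold lower.

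Receptors of growth factors were split. Of 22 receptor tyrosine kinases 8 (36.4%) were higher and 4 (18.2%) lower, beside 20.5% and 10.3% over all genes. Fgfr2 was at 1847 and 1679 on the OP9 arrays and at 97.6 and 98.8 on the NIH3T3 arrays (log2 difference 4.16, SE 0.08, adjusted p = 6.83e-09 from limma), and it was at 462 and 453 in OP9 cells with pre-B cells. Of the receptors for Gas6 and protein S, Mertk was 5.26-fold higher with 182 ± 57.9 against 33.9 ± 5.05 (SD, n = 2), and Axl was lower at 605 and 623 on the OP9 arrays and at 2698 and 2890.1 on the NIH3T3 arrays (log2 difference -2.19, SE 0.07, adjusted p = 9.58e-08 from limma). Met, the receptor of hepatocyte growth factor, and Igf1r, that of insulin-like growth factor 1, were 2.71-fold and 3.87-fold lower. Of the cytokine and TNF receptor list 9 of 36 (25.0%) were higher and 10 (27.8%) lower. One of the higher genes was Il1rn, whose product blocks a receptor and is none itself. Ghr, the growth hormone receptor, was at 4134 and 3973 on the OP9 arrays and at 669 and 669 on the NIH3T3 arrays (log2 difference 2.60, SE 0.07, adjusted p = 2.8e-08 from limma), and it differed by 3.40 without its _s_at probe set. Il3ra was 3.79-fold higher with 178 ± 4.59 against 48.3 ± 16.4 (SD, n = 2). Tnfrsf9, encoding the costimulatory receptor 4-1BB, was at 2134 and 2155 on the NIH3T3 arrays and at 48.4 and 47.2 on the OP9 arrays (log2 difference -5.49, SE 0.10, adjusted p = 6.19e-09 from limma), and Il17ra and Il13ra1 were 10.03-fold and 7.95-fold lower. Il6st, encoding the shared chain gp130, was not called, at 1187 and 1243 on the OP9 arrays and at 2012 and 2261 on the NIH3T3 arrays.

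In the pathways of TGF-beta, Wnt, Notch and Hedgehog 9 of 32 receptors and ligands (28.1%) were higher and 5 (15.6%) lower, beside 20.5% and 10.3% over all genes. Wnt receptors of the Frizzled family were among the higher genes. Fzd8 was at 749 and 738 on the OP9 arrays and at 26.3 and 32.7 on the NIH3T3 arrays (log2 difference 4.66, SE 0.10, adjusted p = 1.3e-08 from limma), Fzd1 was at 1641 and 1730.3 on the OP9 arrays and at 118 and 141 on the NIH3T3 arrays (log2 difference 3.71, SE 0.15, adjusted p = 2.69e-07 from limma), and Fzd5 was 12.4-fold higher. Smo, which carries the Hedgehog signal, was 4.64-fold higher, and Dll1 and Jag1, encoding Notch ligands, were 2.61-fold and 2.03-fold higher. Smo, Dll1 and Jag1 were chosen after their values were seen. Acvr2b, an activin receptor, and Eng, encoding endoglin, were 3.49-fold and 2.64-fold lower.

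Of 159 genes of G protein-coupled receptors and their partners 120 stayed below the minimum. Of the 39 tested 14 (35.9%) were higher and 8 (20.5%) lower, beside 20.5% higher and 10.3% lower over all genes. S1pr3, a receptor of sphingosine 1-phosphate, was at 1715 and 1497 on the OP9 arrays and at 11.7 and 15.1 on the NIH3T3 arrays (log2 difference 6.91, SE 0.14, adjusted p = 7.53e-09 from limma), and S1pr1, chosen after its values were seen, was 5.76-fold higher. Ptgfr, a prostaglandin receptor, was at 341 and 378 on the OP9 arrays and at 18.99 and 15.1 on the NIH3T3 arrays (log2 difference 4.40, SE 0.12, adjusted p = 4.56e-08 from limma), and Lpar4, a receptor of lysophosphatidic acid, was 13.4-fold higher with 108 ± 3.23 against 8.02 ± 0.563 (SD, n = 2). Ackr3, which removes the chemokine Cxcl12, was lower at 67.2 and 62.7 on the OP9 arrays and at 767 and 809 on the NIH3T3 arrays (log2 difference -3.60, SE 0.15, adjusted p = 3.47e-07 from limma). Gpr35 and Gprc5a were 13.4-fold and 9.16-fold lower.

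Among CD antigens and mesenchymal surface markers 10 of 46 (21.7%) were higher and 15 (32.6%) lower, beside 20.5% and 10.3% over all genes. Ly6e and Procr, the latter encoding the protein C receptor, were 7.23-fold and 5.77-fold lower. Cd9 and Cd81, which encode tetraspanins, differed in their calls, as Cd9 was 4.32-fold lower and Cd81 was not called, at 7341 and 6837 on the OP9 arrays and at 5986 and 6144 on the NIH3T3 arrays. Fap, a marker of activated fibroblasts and marrow stroma, was 20.8-fold higher with 259.9 ± 19.1 against 12.5 ± 1.04 (SD, n = 2). On the arrays of OP9 cells with pre-B cells Fap was at 26.2 and 22.4. Cav1, encoding the coat protein of caveolae, was at 7997 and 8119 on the NIH3T3 arrays and at 1666 and 1629 on the OP9 arrays (log2 difference -2.29, SE 0.06, adjusted p = 4.09e-08 from limma), and Cav2 was 3.45-fold lower. Cd9, Fap, Cav1 and Cav2 were chosen after their values were seen. Of the glypicans, which carry heparan sulfate, Gpc6 was at 823 and 838 on the OP9 arrays and at 16.6 and 14.3 on the NIH3T3 arrays (log2 difference 5.75, SE 0.09, adjusted p = 3.21e-09 from limma) and Gpc4 was 29.4-fold higher. Cldn9, encoding a claudin, and Emp2 were 19.4-fold and 11.4-fold lower.

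**Figure D5:**
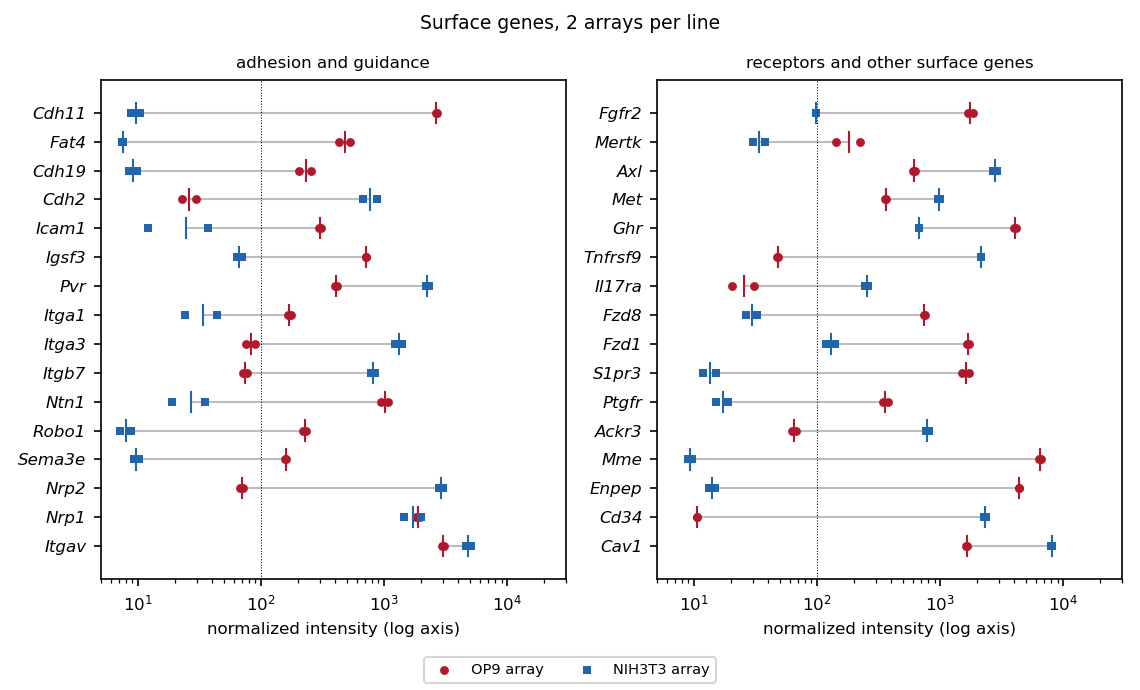
Normalized intensity of 32 surface genes on each OP9 array (red circles) and NIH3T3 array (blue squares), on a log axis, with a tick at the mean of each line and a dotted line at 100. Nrp1 and Itgav were not called and the other genes were. The NIH3T3 arrays of Icam1 lie further apart than those of most genes shown.

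In the list of MHC class I and antigen presentation 3 of 14 genes (21.4%) were higher and 3 (21.4%) lower, beside 20.5% and 10.3% over all genes. Cd1d1, which presents lipids to T-cells, was at 733 and 807 on the OP9 arrays and at 46.9 and 39.9 on the NIH3T3 arrays (log2 difference 4.15, SE 0.10, adjusted p = 1.83e-08 from limma), and at 2.74 on the log2 scale without _x_at probe sets. H2-K1 was at 5967 and 5749 on the NIH3T3 arrays and at 152 and 109.5 on the OP9 arrays (log2 difference -5.50, SE 0.16, adjusted p = 5.11e-08 from limma), and H2-D1 was at 7789 and 8243 on the NIH3T3 arrays and at 385 and 419.6 on the OP9 arrays (log2 difference -4.32, SE 0.08, adjusted p = 5.8e-09 from limma). Another probe set of H2-D1, however, was at 691 and 583 on the OP9 arrays and at 55.2 and 39.8 on the NIH3T3 arrays, the reverse order. The probe sets of H2-K1 differed among themselves too, and one was at 162 and 163 on the OP9 arrays and at 142 and 189 on the NIH3T3 arrays, with overlapping arrays. These genes differ in sequence between mouse strains, and strain and level cannot be told apart here. B2m, encoding the shared light chain, was not called, at 12345 and 12396 on the OP9 arrays and at 8979 and 9050.0 on the NIH3T3 arrays.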

How the data were processed

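RNA from 8 samples of 4 kinds of cells was hybridized to Affymetrix mouse 430 2.0 arrays. The authors deposited linear, normalized intensity values of 45101 probe sets. Of the programs in their methods (RMA Express, affylmGUI, dChip), the one behind these values is not given in the sources read. A probe set was named where the annotation of the array gave 1 symbol (34958 of 45101). The log2 of the values was used without a pseudocount. Each gene was represented by its brightest probe set (mean log2 over 8 arrays) and kept if 2 or more arrays reached 100. Group means of all 4 kinds were fitted with limma 3.58.1 in R 4.3.3 (lmFit, eBayes) and p-values adjusted over 10084 genes by Benjamini and Hochberg. Array medians lay between 41.8 and 45.0, 34.3 to 36.3% of probe sets reached 100, and precision is limited by the few arrays. Replicates correlated at 0.9976 for OP9 and 0.9889 for NIH3T3 cells over probe sets, which are not independent.

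The genes named were taken from the 12 with the largest fold in each direction, up to 3 per direction of each list and the brightest uncalled gene of each list, not all of which are given; others are said to have been chosen later. The lists, the naming rule and the alternatives were set with earlier results of these data known. Alternatives were no filter or one at 200, quantile or median scaling, a pseudocount of 16, the 4 compared arrays alone, a trended or robust prior, a replicate block, other treatments of probe sets, other fold minimums and leaving out each array. The model was tested on simulated data.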

Additional observations from a re-analysis of the deposited data

How the results depend on the processing

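Without a minimum fold 4659 genes were higher and 3196 lower in OP9 cells, among them 149 and 98 transcription factors, 262 and 167 metabolism genes and 141 and 121 surface genes. With a 5-fold minimum 612 were higher and 239 lower, with 49 and 12 transcription factors, 42 and 31 metabolism genes and 51 and 26 surface genes. No other alternative moved these counts by over 1.5 times, and leaving out each array in turn gave 1966 to 2215 higher and 1021 to 1074 lower genes, where the lone array of a line was taken to vary like the other groups. With the replicate block 2072 genes were higher and 1034 lower, and deviations of OP9 and NIH3T3 arrays with the same number correlated at -0.004 over genes. No shared deviation was thus seen, but with 2 arrays per line this cannot show whether arrays with the same number were prepared together. Of 209 called genes chosen by the naming rule, 160 were tested and called under every alternative to the fit, the filter and the probe sets, 16 lost their call under at least 1, and none changed direction where tested. The mean of all probe sets of a gene did not keep 30 of these calls, 12 that missed the threshold and 18 that fell below the minimum level and were not tested. A filter at 200 left 17 untested, the removal of _x_at and _s_at probe sets 5, and a filter on the compared arrays 3. Quantile normalization lost 3 calls, leaving out NIH3T3 array 2 also 3, and median scaling, a pseudocount of 16, leaving out NIH3T3 array 1 or OP9 array 2 lost 1 each. Ets1 was not called without NIH3T3 array 2 (-0.81), Foxj2 and Cdh26 were just below 2-fold without it, Psmb9 was at 0.91 without NIH3T3 array 1, and Ets1 at -0.94 without OP9 array 2. Of the list counts, 8 instead of 3 cadherins were lower with no filter and 11 instead of 5 genes of the respiratory chain were higher with each probe set on its own. The mean of probe sets gave 10 instead of 17 higher Krueppel-like, EGR and GATA factors, 3 instead of 6 higher citrate cycle genes, 3 instead of 6 lower guidance receptors and 1 instead of 5 lower TGF-beta, Wnt and Notch receptors. A filter at 200 gave 3 instead of 5 lower Hox genes and 5 instead of 8 lower G protein-coupled receptors, and median scaling raised the higher STAT and IRF factors from 5 to 8. Background compresses the differences of dim genes, and a saturated or dim probe set was not marked in the deposited values.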

Other observations

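Cdkn2b and its neighbour Mtap went opposite ways. Cdkn2b, which blocks the kinases that start the cycle, was at 984 and 1066 on the OP9 arrays and at 32.8 and 22.7 on the NIH3T3 arrays (log2 difference 5.23, SE 0.18, adjusted p = 1.4e-07 from limma), and at 25.1 and 19.4 on the MC3T3 arrays. The adjacent gene Cdkn2a was at 50.7 and 50.8 on the OP9 arrays and at 18.5 and 19.7 on the NIH3T3 arrays. It was called higher like Cdkn2b, although it stayed below 100 in both lines. It passed the minimum only through the arrays of OP9 cells with pre-B cells, at 108 and 120.5. Cdkn2b and Cdkn2a were chosen after their values were seen. Mtap, which encodes an enzyme of methionine salvage and lies beside them in the genome, was the reverse, at 8727 and 8638 on the NIH3T3 arrays and at 1684 and 1357 on the OP9 arrays (log2 difference -2.52, SE 0.15, adjusted p = 2.61e-06 from limma). On the MC3T3 arrays Mtap was at 179 and 132, and its other 3 probe sets there lay between 8.05 and 26.8. Cdkn2c, a further inhibitor of the INK4 family that was also chosen later, was lower in OP9 cells like Mtap, at 1198 and 1207 on the OP9 arrays and at 2977 and 3021 on the NIH3T3 arrays (log2 difference -1.32, SE 0.08, adjusted p = 1.93e-06 from limma).

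Of 1310 called genes with other tested probe sets, 842 had all of these called in the same direction and 17 had at least 1 called in the opposite direction, among them Mef2a, Zfhx3 and Nptn. Runx1 had 2 of 4 other tested probe sets called in the same direction and Tsc22d3 had 1 of 2.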
